A study of Mus musculus with 2 samples.

Results

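The 9 genes described here, H19, Dlk1, Meg3, Peg3, Cdkn1c, Plagl1, Grb10, Mest and Ndn, are imprinted, that is, each is expressed mainly from the copy inherited from 1 parent, and all have been linked to the control of growth before and shortly after birth. They were taken by gene symbol from the 31053 genes of the count tables, and all 9 were found. Hearts of mice at postnatal day 1 (P1) and postnatal day 7 (P7) were profiled as dissociated single cells, and each age gave 1 RNA-seq library. For each library 3 hearts of 1 litter were pooled and digested with collagenase II for 20 min at P1 and 45 min at P7. After filtering and lysis of red blood cells, live cells that excluded the dye 7-AAD were sorted, without a marker of any cell type. The paper states that cardiomyocytes were underrepresented, because of low survival and a size that did not suit the sorting. The submitters named no strain, genotype or treatment in the labels used here. With 1 library per age there was no replicate, so no test between the ages was possible, and every interval given below covers counting error only. Age, litter, digestion time and the sex of the pups cannot be told apart, since Xist had 57336 UMIs (unique molecular identifiers, by which copies of one captured mRNA are counted as 1) at P1 and 12 at P7, while Ddx3y on the Y chromosome had 0 at P1 and 7623 at P7.

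Imprinting is set by DNA methylation laid down in the germ line and kept after fertilisation, and many imprinted genes lie in clusters in which a control region governs several neighbours. In broad terms, paternally expressed genes of this kind tend to promote growth of the fetus and maternally expressed ones to restrain it. A group of them is known to be switched down together in many organs as growth slows after birth, and some, such as Cdkn1c and Grb10, stay in use in defined adult tissues.

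Barcodes were kept where they held 200 to 8000 genes and at most 20% mitochondrial UMIs, by which 4991 of 7836 barcodes remained at P1 and 8511 of 9077 at P7. Their summed depth was 59026295 and 97432007 UMIs, with a median of 10875 and 10104 UMIs per cell. Cells were assigned to 7 classes by a gate of at least 2 UMIs of a marker gene: Cdh5 for endothelium (1620 cells at P1, 3200 at P7), Pdgfra for fibroblasts (911 and 1936), Myh11 for smooth muscle (131 and 369), Kcnj8 for pericytes (181 and 329), Csf1r for macrophages (198 and 197) and Upk3b for epicardium (40 and 18). A seventh gate asked for at least 1 UMI of both Fmod and Scx, matrix and tendon genes that valve interstitial cells also use (209 and 101 cells). For 6 of the gates all 8 panel genes of the named cell type were at least 2-fold above the other cells and detected in 10% of cells in both libraries. The Fmod and Scx gate passed for 3 of its 8 panel genes at P1 and for 6 at P7, and its leading genes included Thbs4, Chad and Col2a1, so it is called by its gate. Cells with a UMI of Hoxa5, Foxf1 or Tbx4, genes used in lung, were 7.77% of cells at P1 and 2.73% at P7, and in the Upk3b gate 23 of 40 at P1 against 2 of 18 at P7. In Kcnj8 cells the shares were 13.3% at P1 and 6.99% at P7, and in Myh11 cells 12.2% and 4.1%. In Cdh5 cells they were 10.9% and 3.91%, and in Pdgfra cells 3.73% and 1.03%. How many Upk3b cells came from lung was not tested, so this gate too is called by its gate. The libraries shared 13 of the barcodes kept.

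Dlk1, H19, Plagl1 and Peg3 had the largest differences of the 9 genes between the libraries, all towards P1. Over all cells, 4 of the 9 genes were at least 2-fold higher at P1 and 0 were at least 2-fold higher at P7. Among the 16552 genes with at least 20 summed UMIs, 8.88% were at least 2-fold higher at P1 and 4.07% at P7. The 9 genes were chosen with earlier results of these data known, so their count beside these shares is a description. For the log2 ratio of P1 over P7 the median of the 9 genes was 0.60 and that of all genes tested 0.00414. Levels are in UMIs per 1000000 summed UMIs (CPM), and with this 3′ assay a molecule counts once whatever its length. In these pooled sums, fewer cells of a kind and less RNA of a gene per cell cannot be told apart, so each gene was also followed within the gates. Reweighting the P7 gates and remaining cells to their shares at P1 moved the 9 log2 ratios by at most the 0.26 to 0.42 of Meg3, with H19 at 1.90 as observed and 1.89 after reweighting, Dlk1 at 3.49 and 3.61, and Peg3 at 1.68 and 1.80. Ndn, observed at -0.10, was at 0.05 after reweighting. Whole gates were reweighted, so shifts between kinds of cell within a gate were not covered. Within Cdh5 cells a further reweighting, described below, took H19 from 1.98 to 0.97 and Dlk1 from 3.51 to 3.13.

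**Figure D1:**
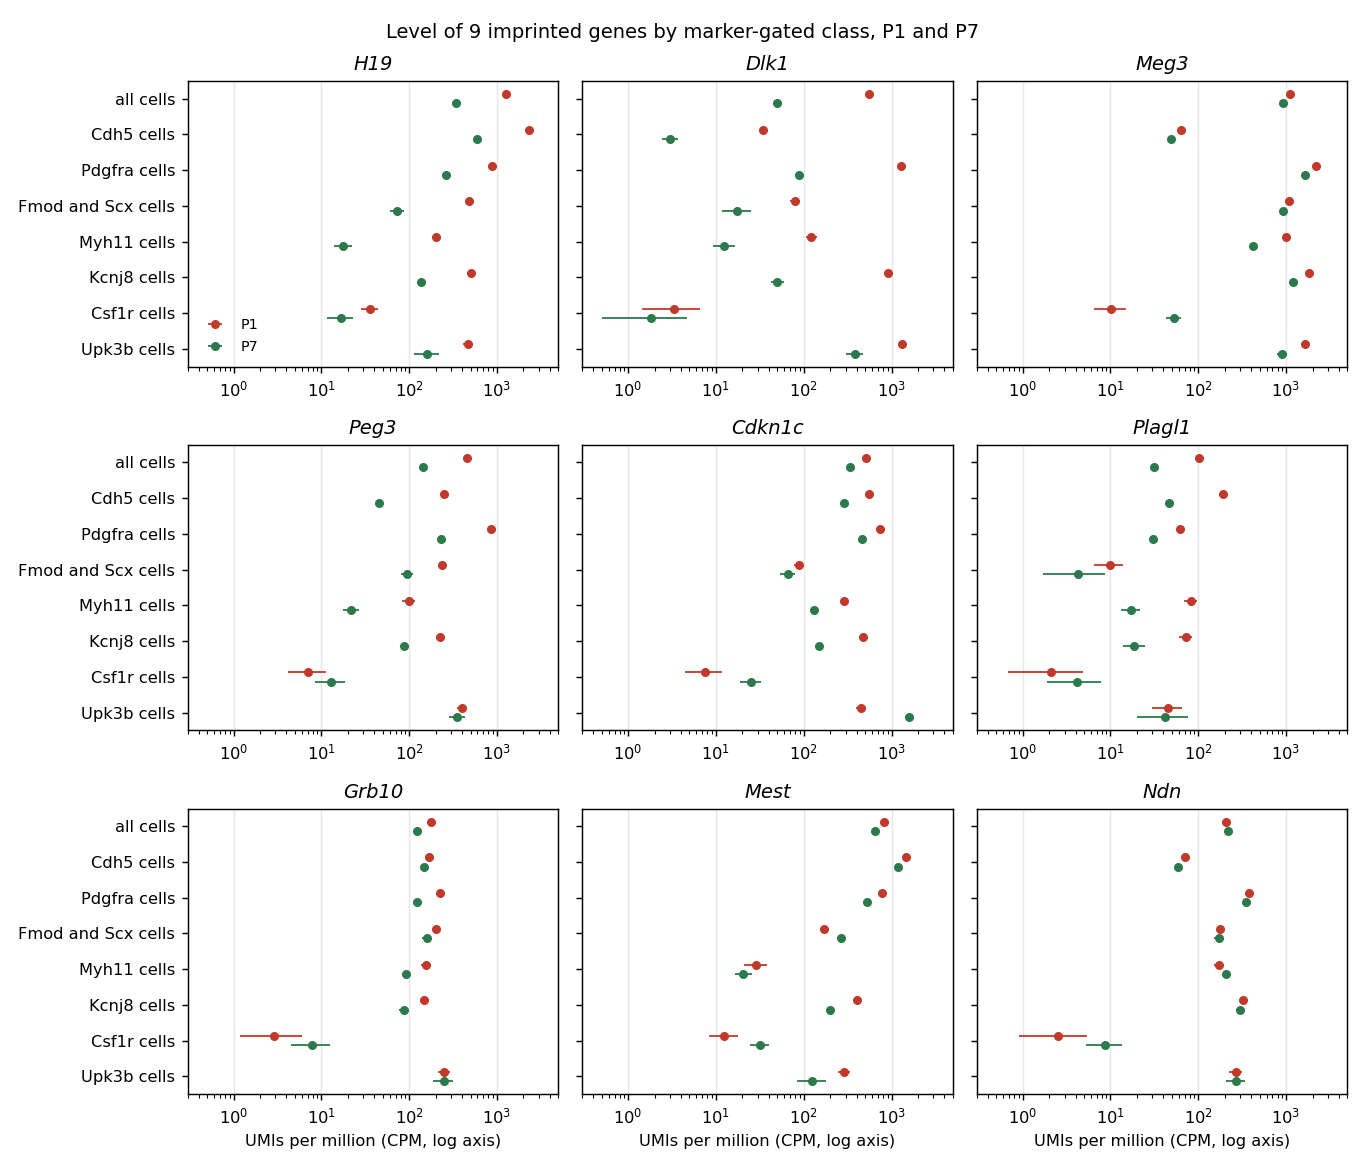
Level of each of the 9 genes in CPM (horizontal log axis) in all cells and in the 7 marker gates (vertical axis), with P1 in red, P7 in green and bars for exact Poisson 95% intervals. The red points of H19 lie to the right of the green ones in every row, from 2346 against 596 CPM in Cdh5 cells to 35.4 against 16.5 CPM in Csf1r cells.

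The 2 long non-coding RNAs differed from each other in where they were found. H19 is a maternally expressed RNA whose body contains a microRNA hairpin, and its loss is known to release placental and embryonic growth. Its annotated span is chr7:142575529-142578143 on GRCm38. In Cdh5 cells H19 stood at 2346 CPM at P1 and 596 CPM at P7 (log2 ratio 1.98, 95% interval 1.95 to 2.00). In Pdgfra cells it was at 867 and 266 CPM (1.71, 1.67 to 1.74). These endothelial and fibroblast gates held the highest H19 levels at both ages, and the Cdh5 gate held 60.4% of all H19 UMIs at P1 with 32.5% of all UMIs. In Kcnj8 cells the level was 505 CPM at P1 and 138 CPM at P7 (1.87, 1.70 to 2.05). In Fmod and Scx cells it was 483 and 73.2 CPM (2.72, 2.46 to 3.00). Myh11 cells had the largest ratio, from 202 to 17.8 CPM (3.50, 3.13 to 3.90). There 71 of the 321 P1 UMIs (22.1%) lay in 1 cell, and the ratio was 3.31 without the highest cell at each age and 3.00 without cells with a lung gene UMI. The 8 cardiomyocyte genes summed to 739 and 177 CPM in this gate, and their part in the ratio was not tested. Upk3b cells were at 465 and 159 CPM (1.53, 1.05 to 2.07), with 20 of the 38 P7 UMIs in 1 cell. H19 was the one gene of the 9 that was at least 2-fold higher at P1 in all 7 gates, although in Csf1r cells, where it rested on 85 and 36 UMIs, the ratio fell under 2-fold in 2 of 16 alternatives. At P1 the levels in Kcnj8, Fmod and Scx, and Upk3b cells overlapped in their intervals, and at P7 those in Myh11 and Csf1r cells did.

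Meg3, a maternally expressed RNA of the Dlk1 cluster that is held to restrain growth, was under 2-fold different between the ages in most gates where it was abundant. In Pdgfra cells it stood at 2191 CPM at P1 and 1627 CPM at P7 (log2 ratio 0.43, 0.41 to 0.45), and 97.8% and 98.7% of these cells had a UMI of it. In Kcnj8 cells it was at 1805 and 1200 CPM (0.59, 0.52 to 0.66). In Upk3b cells it was at 1635 and 905 CPM (0.85, 0.64 to 1.07). Myh11 cells were the one gate with a 2-fold difference towards P1, from 989 to 424 CPM (1.22, 1.12 to 1.32). Cdh5 cells held little Meg3, at 62.8 and 48.8 CPM, a 34.9-fold lower level than Pdgfra cells at P1. The ratio in Cdh5 cells was 0.36 in the gate as set and -0.40 when cells passing several gates were kept, so its direction depended on those cells.

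H19, Meg3 and Mest carry microRNAs within their bodies. The 3′ libraries did not measure mature microRNAs. Those that RefSeq places inside the 3 host genes on GRCm38.p6 are shown because they are the sequences that lie in the transcripts followed here, with the seed (bases 2 to 8) in capitals; their seeds all differ.
mmu-miR-675-5p in H19: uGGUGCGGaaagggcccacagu
mmu-miR-675-3p in H19: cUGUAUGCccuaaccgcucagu
mmu-miR-770-5p in Meg3: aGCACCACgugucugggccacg
mmu-miR-770-3p in Meg3: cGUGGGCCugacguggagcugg
mmu-miR-1906 in Meg3: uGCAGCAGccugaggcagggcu
mmu-miR-335-5p in Mest: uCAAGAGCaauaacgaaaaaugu
mmu-miR-335-3p in Mest: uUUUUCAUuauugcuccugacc
The first pair lies at chr7:142577112-142577133 and chr7:142577078-142577099 on the minus strand, the second at chr12:109563710-109563731 and chr12:109563744-109563765, and the Mest pair at chr6:30741314-30741336 and chr6:30741354-30741375, both on the plus strand. The remaining one, miR-1906, lies at chr12:109544588-109544609 on the plus strand.

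Dlk1 had the largest ratio of the 9 genes over all cells, 560 CPM at P1 and 49.7 CPM at P7 (log2 ratio 3.49, 3.45 to 3.54). It encodes a membrane-bound and shed protein related to the Notch ligands and known to hold back fat cell differentiation, and it is expressed from the paternal copy at chr12:109452823-109463336. In Pdgfra cells it was at 1273 CPM at P1 and 87.9 CPM at P7 (3.86, 3.80 to 3.91). The share of Pdgfra cells with a UMI was 77.3% at P1 and 20.9% at P7, and it was 54.6% and 7.88% with every cell thinned to 2000 UMIs. In the Csf1r gate, where the gene is not known to be expressed, the unthinned shares were 3.54% and 2.03%; the median cell held 10756 and 10076 UMIs there and 16028 and 17094 in Pdgfra cells. The fibroblast shares at both ages thus lay above that background. Kcnj8 cells had the largest Dlk1 ratio of any gate, from 909 to 50.2 CPM (4.17, 3.93 to 4.43). Upk3b cells had the smallest among the 6 gates past 2-fold, from 1327 to 381 CPM (1.79, 1.49 to 2.13), and kept the highest P7 level of the 7 gates. Dlk1 was low in Cdh5 cells, 34.5 CPM at P1 and 3.03 CPM at P7 (3.50, 3.18 to 3.85), where 36 of the 86 P7 UMIs (41.9%) came from 1 cell. The 8 fibroblast panel genes summed to 778 CPM at P1 and 1195 CPM at P7 in Cdh5 cells. In Pdgfra cells they summed to 24483 and 40680 CPM. The part of fibroblast RNA in the Dlk1 level and ratio of Cdh5 cells was not tested. In Fmod and Scx cells the ratio of 2.16 rested on 29 P7 UMIs and was 0.53 with a gate of 2 UMIs of each marker. At P7 the remaining Dlk1 was concentrated, with 91.1% of the UMIs of Pdgfra cells in the highest 10% of cells against 50.9% at P1.

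Dlk1 and Meg3 are neighbours, 77665 bases apart on chromosome 12, and their log2 ratios over all cells were 3.49 and 0.26. In Pdgfra cells, which held 60.1% of Dlk1 UMIs and 51.9% of Meg3 UMIs at P1, the ratios were 3.86 and 0.43. The windows from 250 bases before to 50 bases after the RefSeq transcript starts (GRCm38.p6) are shown because these 2 genes of one cluster, expressed from opposite parental copies, had the ratios 3.49 and 0.26.
Dlk1, chr12:109452573-109452872, plus strand: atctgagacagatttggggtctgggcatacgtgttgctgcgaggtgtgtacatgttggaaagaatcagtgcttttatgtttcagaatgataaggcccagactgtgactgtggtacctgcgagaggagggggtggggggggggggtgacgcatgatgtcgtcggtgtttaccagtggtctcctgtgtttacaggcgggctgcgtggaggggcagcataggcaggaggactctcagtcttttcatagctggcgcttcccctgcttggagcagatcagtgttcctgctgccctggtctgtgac
Meg3, chr12:109540746-109541045, plus strand: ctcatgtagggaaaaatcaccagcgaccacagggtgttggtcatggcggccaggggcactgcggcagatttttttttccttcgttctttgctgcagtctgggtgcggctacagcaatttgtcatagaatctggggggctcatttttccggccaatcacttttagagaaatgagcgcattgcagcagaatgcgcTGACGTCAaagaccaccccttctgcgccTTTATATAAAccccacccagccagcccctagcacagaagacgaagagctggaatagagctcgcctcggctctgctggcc
Capitals mark TGACGTCA, the palindromic cAMP response element, which began 57 bases before the Meg3 start, and TATAAA on both strands, overlapping as a run of 10 bases. The Dlk1 window held neither, nor did a second RefSeq window of Meg3, at chr12:109545148-109545447, which is not printed. Over 32851 RefSeq windows of the same length, 1.79% held TGACGTCA and 13.6% held TATAAA on either strand. The motifs were picked after these windows had been read, and a match is a description of the letters, not of binding.

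The 2 zinc finger genes, Peg3 and Plagl1, were both higher at P1. Peg3, a paternally expressed regulator of growth and maternal behaviour at chr7:6703892-6730431, stood at 458 CPM at P1 and 143 CPM at P7 over all cells (log2 ratio 1.68, 1.65 to 1.71). In Cdh5 cells it was at 252 and 45.2 CPM (2.48, 2.39 to 2.57). In Pdgfra cells it was at 856 and 230 CPM (1.90, 1.86 to 1.94). Peg3 was at least 2-fold higher at P1 in 5 of 7 gates, with Myh11 cells at 2.17 (1.78 to 2.57), Kcnj8 cells at 1.34 (1.11 to 1.57) and Fmod and Scx cells at 1.32 (1.07 to 1.58). Upk3b cells, at 401 and 352 CPM, had a ratio of 0.18 whose interval of -0.17 to 0.57 included 0. The share of Cdh5 cells with a Peg3 UMI was 60.9% at P1 and 21.7% at P7, and 32.3% and 7.17% after thinning, against 7.07% and 5.08% of Csf1r cells without thinning.

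The Peg3 window is shown because the gene was among the 4 with a 2-fold difference over all cells and shares its start region with Usp29, which lies 147 bases away and differed in the same direction.
Peg3, chr7:6730370-6730669, minus strand: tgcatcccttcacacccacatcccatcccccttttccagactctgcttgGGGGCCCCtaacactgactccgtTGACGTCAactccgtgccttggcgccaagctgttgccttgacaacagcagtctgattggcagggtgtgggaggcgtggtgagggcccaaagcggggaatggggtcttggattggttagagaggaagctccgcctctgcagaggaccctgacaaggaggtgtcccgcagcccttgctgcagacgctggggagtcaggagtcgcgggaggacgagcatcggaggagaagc
Capitals mark TGACGTCA, which began 178 bases before the start, and GGGGCCCC, a core of the sequence known to be bound by the Plagl1 protein, which 1.08% of the 32851 windows held. Windows were given for 7 of the 9 genes, and those for H19 and Cdkn1c were not in the table used.

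Plagl1, a paternally expressed zinc finger factor with a known part in control of other imprinted genes, stood at 102 CPM at P1 and 31.5 CPM at P7 over all cells (log2 ratio 1.69, 1.62 to 1.75). It was most abundant in Cdh5 cells, at 194 and 46.1 CPM (2.07, 1.98 to 2.16), although at P7 the interval of this level overlapped that of Upk3b cells. In Myh11 cells the ratio was 2.26 (1.83 to 2.71) and in Kcnj8 cells 1.94 (1.48 to 2.44). The 2-fold difference in Pdgfra cells, 62.0 against 30.6 CPM (1.02, 0.89 to 1.15), was at the threshold and fell under it in 5 of 15 alternatives. In Fmod and Scx cells, with 30 and 7 UMIs, the ratio of 1.13 had an interval from -0.01 to 2.64. In Upk3b cells it was at 45.0 and 41.9 CPM, a ratio of 0.06 (-0.99 to 1.31).

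**Figure D2:**
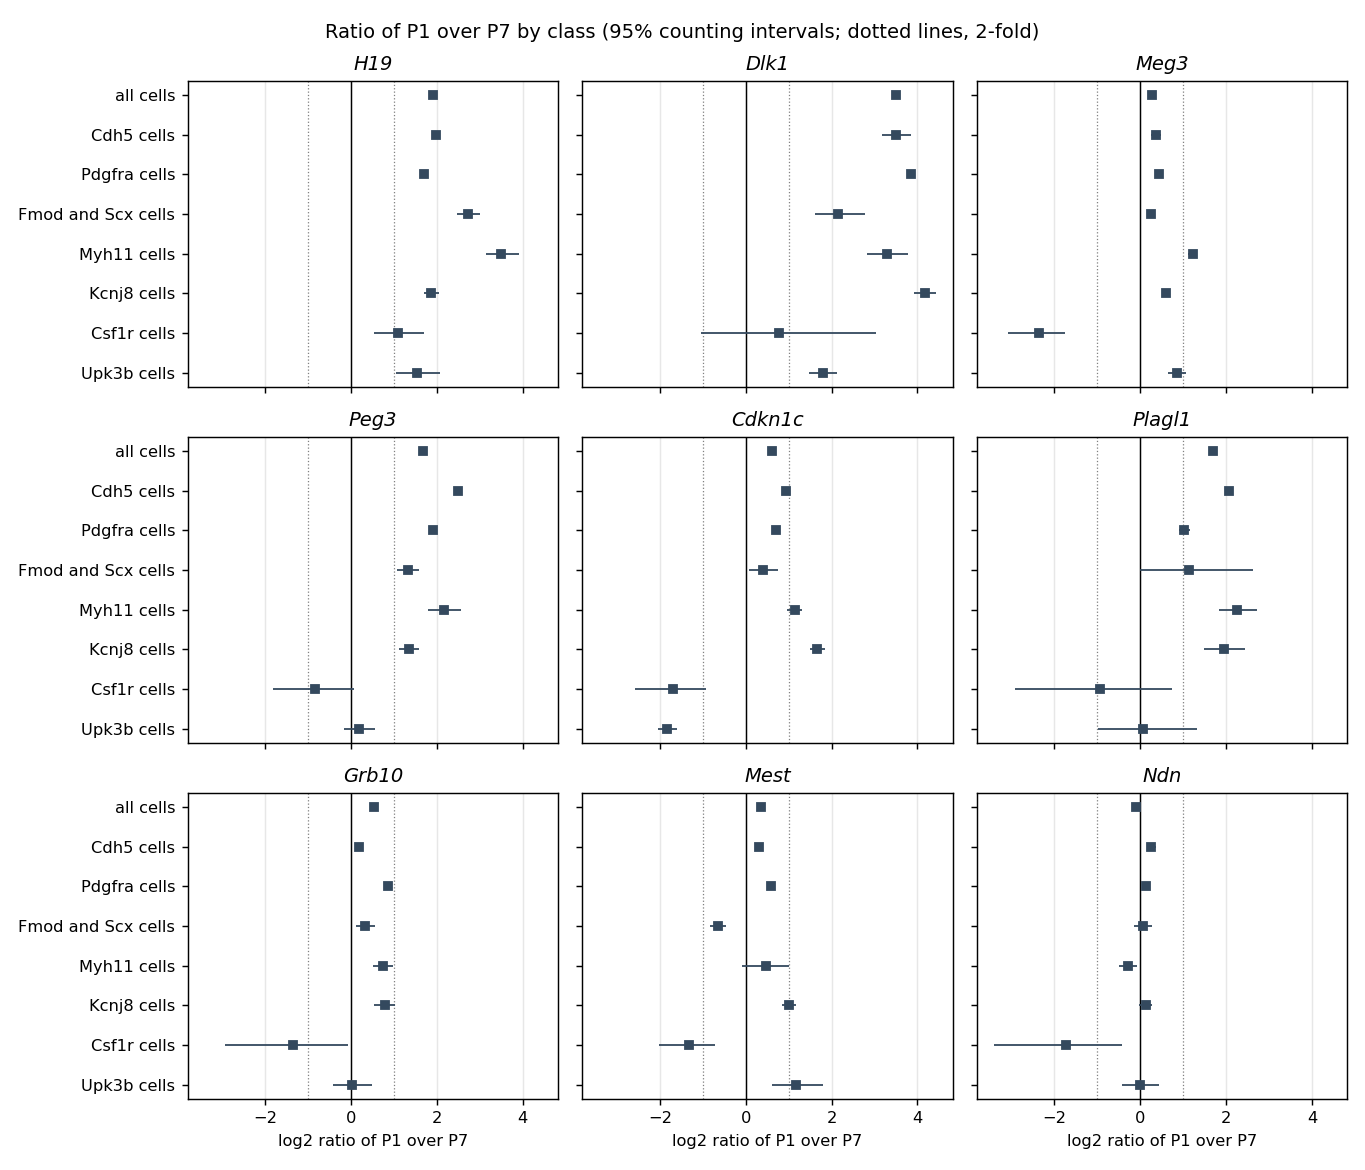
Log2 ratio of P1 over P7 (horizontal axis) in all cells and the 7 gates (vertical axis) for each gene, with exact binomial 95% intervals and dotted lines at 2-fold. H19 and Dlk1 lie to the right of 0 in every row, Ndn lies between -0.28 and 0.25 outside Csf1r cells, and Cdkn1c in Upk3b cells lies at -1.82.

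The 2 maternally expressed restrainers of growth, Cdkn1c and Grb10, were not 2-fold different over all cells. Cdkn1c encodes p57, an inhibitor of cyclin-dependent kinases, at chr7:143458339-143461050. It stood at 509 CPM at P1 and 335 CPM at P7 (log2 ratio 0.60, 0.58 to 0.63). In Cdh5 cells it was at 553 and 289 CPM (0.94, 0.90 to 0.98), and in Pdgfra cells at 746 and 459 CPM (0.70, 0.66 to 0.73). Mural cells had larger ratios, with Kcnj8 cells at 478 and 150 CPM (1.67, 1.5003 to 1.84) and Myh11 cells at 290 and 132 CPM (1.14, 0.96 to 1.32). The ratio in Myh11 cells was -0.15 when Myh11 cells were defined by marker panels, which left 32 and 36 cells.

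Cdkn1c in Upk3b cells went the other way, at 450 CPM at P1 and 1592 CPM at P7 (log2 ratio -1.82, -2.05 to -1.59). A UMI of it was found in 35 of 40 Upk3b cells (87.5%) at P1 and in 100% of the 18 cells at P7, and the thinned shares were 55.0% and 72.2%. The median of single cells was 238 CPM at P1 against 850 CPM at P7. One P7 cell gave 27.9% of the UMIs, and the ratio without the highest cell at each age was -1.61. Without the cells that had a lung gene UMI, which left 17 and 16 cells, it was -1.29. With a gate of 1 UMI it was -0.50, so the size of this difference depended on how the few Upk3b cells were chosen. Its sign did not turn in any of 15 alternatives. These drew on the same libraries and largely on the same few cells, so they do not test the direction. The Upk3b gate is the smallest of the 7, and each of its shares carries a wide interval, 73.2 to 95.8% for the P1 share with a UMI.

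Grb10 encodes an adaptor that binds the insulin and IGF1 receptors and dampens their signal. It stood at 179 CPM at P1 and 124 CPM at P7 over all cells (log2 ratio 0.53, 0.49 to 0.57), and was past 2-fold towards P1 in 0 of 7 gates. Outside Csf1r cells its P1 levels ranged from 148 CPM in Kcnj8 cells to 251.48 CPM in Upk3b cells. In Cdh5 cells it was at 168 and 147 CPM (0.19, 0.12 to 0.26) and in Pdgfra cells at 225 and 124 CPM (0.86, 0.79 to 0.92).

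Mest, a paternally expressed gene for a membrane protein with a hydrolase fold, was like H19 most abundant in Cdh5 cells, but was under 2-fold different between the ages there. It was at 1449 CPM at P1 and 1173 CPM at P7 in Cdh5 cells (log2 ratio 0.30, 0.28 to 0.33), and at 783 and 523 CPM in Pdgfra cells (0.58, 0.55 to 0.61). In Fmod and Scx cells it was higher at P7, at 168 and 264 CPM (-0.65, -0.83 to -0.46). In Kcnj8 cells the ratio was 1.00 (0.84 to 1.16), at the 2-fold line, and fell to 0.46 when cells passing several gates were kept. Upk3b cells had a ratio of 1.17 (0.62 to 1.80), with 25 of the 30 P7 UMIs in 1 cell. The Mest transcript overlaps Copg2 on the other strand, and Copg2 was at 21.7 and 21.2 CPM.

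Ndn, a paternally expressed, single-exon gene of the MAGE family that binds E2F and p53, was the nearest to equal. It stood at 206 CPM at P1 and 220 CPM at P7 over all cells (log2 ratio -0.10, -0.13 to -0.07). In Pdgfra cells it was at 378 and 346 CPM (0.13, 0.08 to 0.17), and 93.2% and 96.0% of these cells had a UMI. In Kcnj8 cells it was at 326 and 298 CPM, and in Upk3b cells at 266 and 268 CPM, with intervals of the ratio that included 0 in both.

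By gate, the number of the 9 genes at least 2-fold higher at P1 was 4 in Cdh5 cells (5.34% of all genes tested there), 4 in Pdgfra cells (5.81%), 4 in Fmod and Scx cells (4.22%), 6 in Myh11 cells (5.13%), 6 in Kcnj8 cells (3.36%) and 3 in Upk3b cells (6.69%). At P7, 0 were at least 2-fold higher in Cdh5 cells (4.02% of all genes), Pdgfra cells (4.58%), Fmod and Scx cells (2.71%), Myh11 cells (3.49%) and Kcnj8 cells (2.64%), and 1 was in Upk3b cells (5.61%). The median log2 ratio of the 9 genes was 0.94, 0.86, 0.41, 1.22, 1.34 and 0.18 in that order, with medians of all genes tested between -0.06 and 0.05. H19 and Dlk1 were past 2-fold in all 6 of these gates, and Grb10 and Ndn in 0 of them. For Dlk1 this includes Cdh5 cells, where its level was low and the part of fibroblast RNA was not tested. Peg3 and Plagl1 were past it in the same 5 gates, all but that of Upk3b cells.

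Csf1r cells were the exception. With 7 of the 9 genes (Plagl1 and Dlk1 not among them) at 20 summed UMIs or more, 1 gene was at least 2-fold higher at P1 (2.95% of all genes) and 5 at P7 (5.61%), and the levels of the 9 genes ranged from 1.84 CPM for Dlk1 to 52.4 CPM for Meg3 at P7. At least 4 of the 9 genes were found in 0.53% of thinned Csf1r cells at P1 and 0.51% at P7. The 8 fibroblast panel genes summed to 288 CPM at P1 and 1447 CPM at P7 in this gate. Of these 8, 7 were at least 2-fold higher at P7. The part of fibroblast RNA in the ratios of this gate was not tested. Of the 114 Meg3 UMIs at P7, 67 lay in 1 cell, and after cells with a Cdh5 or Pdgfra UMI were left out the Meg3 ratio changed from -2.36 to 1.17. The sign of 7 of the 9 ratios in this gate, those of all but H19 and Dlk1, turned under at least 1 alternative, so no direction is read from them.

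The gates hide differences in kind. Cdh5 cells were divided by 5 further markers, each with at least 2 UMIs: Aplnr for veins and growing capillaries, Car4 for capillaries, Gja5 for arteries, Npr3 for endocardium and Prox1 for lymphatics. In that order the subsets held 255, 223, 29, 190 and 13 of the 1620 Cdh5 cells at P1. At P7 they held 1156, 265, 106, 59 and 20 of 3200. Many cells of the gate thus carried none of the 5 markers. H19 stood apart in Npr3+ cells, at 9150 CPM at P1 and 5550 CPM at P7 (log2 ratio 0.72, 0.67 to 0.77). In Aplnr+ cells it was at 1202 and 397 CPM (1.60, 1.54 to 1.66), and in Car4+ cells at 717 and 438 CPM (0.71, 0.59 to 0.84). Plagl1 was also highest in Npr3+ cells, at 807 and 538 CPM (0.58, 0.43 to 0.74), and lower in Aplnr+ cells, at 95.4 and 28.0 CPM (1.77, 1.54 to 1.99). Mest had the opposite order, at 1762 CPM in Aplnr+ cells and 811 CPM in Npr3+ cells at P1, and its ratio was 0.30 (0.26 to 0.35) in the former and 1.95 (1.72 to 2.20) in the latter.

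The shares of cells passing these marker gates differed between the libraries. Npr3+ cells were 190 of 1620 Cdh5 cells (11.7%, exact binomial interval 10.2 to 13.4) at P1 and 59 of 3200 (1.84%, 1.41 to 2.37) at P7, and Aplnr+ cells were 15.7% and 36.1%. When the P7 subsets were reweighted to their P1 shares, the H19 ratio in Cdh5 cells went from 1.98 to 0.97 and the Plagl1 ratio from 2.07 to 0.88, both under 2-fold. Peg3 went from 2.48 to 2.02 and Dlk1, at its low level in this gate, from 3.51 to 3.13 in the same calculation, so these 2 stayed past it. Meg3 went from 0.36 to -0.07 and Cdkn1c from 0.94 to 0.57, while Mest rose from 0.30 to 0.51. The median Cdh5 cell held 10752 UMIs at P1 and 7858.5 at P7, and a subset asked for at least 2 UMIs of its marker. Whether fewer endocardial cells were present at P7, fewer were released by the digestion or fewer passed the Npr3 gate was not tested.

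**Figure D3:**
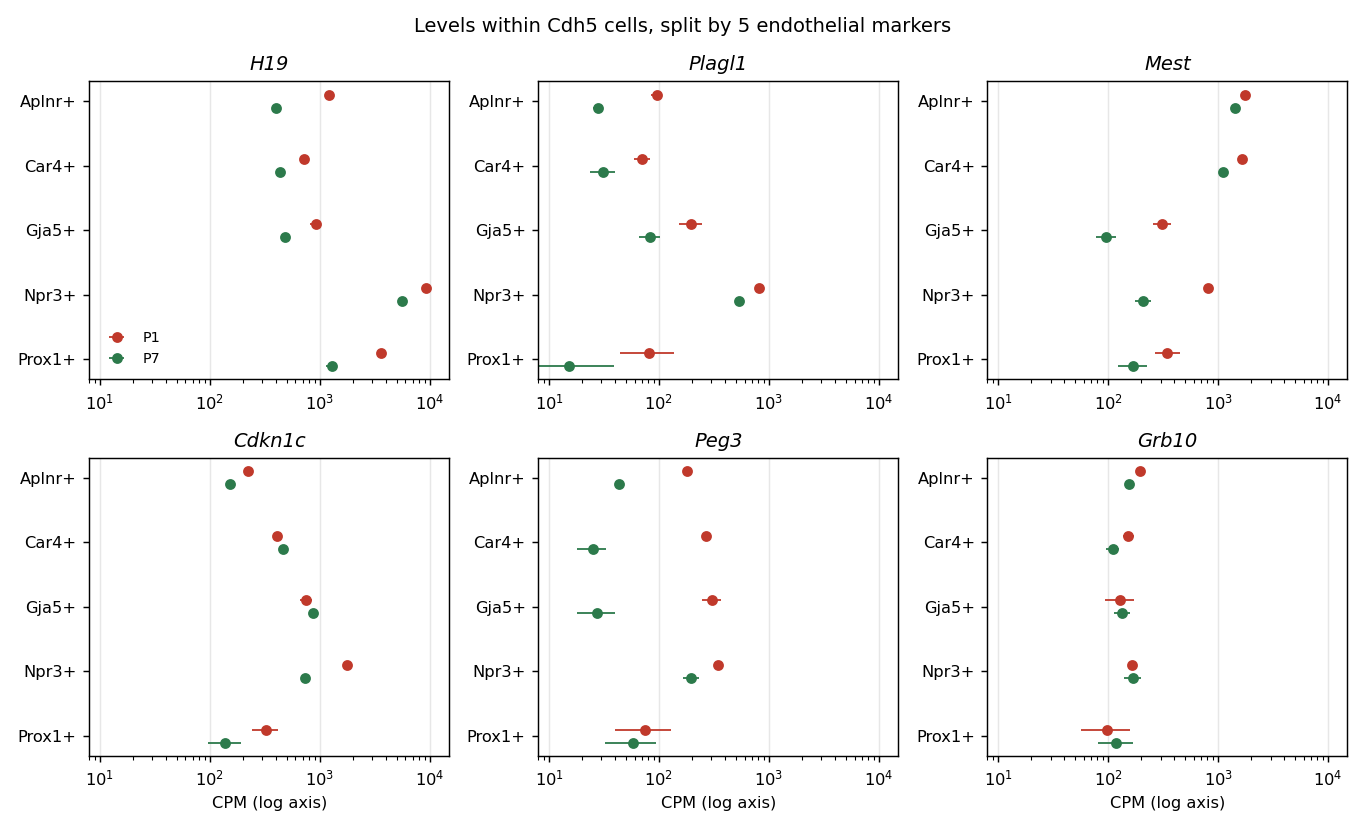
Level in CPM (horizontal log axis) of 6 of the 9 genes within Cdh5 cells that carried at least 2 UMIs of Aplnr, Car4, Gja5, Npr3 or Prox1 (vertical axis), at P1 (red) and P7 (green) with exact Poisson 95% intervals. Npr3+ cells hold the highest H19 level at both ages, 9150 and 5550 CPM, and Mest is highest in Aplnr+ and Car4+ cells.

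The endothelial subset with the highest Cdkn1c level was not the same at both ages. Cdkn1c at P1 was highest in Npr3+ cells, at 1773 CPM, against 750 CPM in Gja5+ cells and 222 CPM in Aplnr+ cells. At P7 it was highest in Gja5+ cells, at 870 CPM, and the Npr3+ level was 735 CPM. Its ratio was past 2-fold in Npr3+ cells, at 1.27 (1.14 to 1.40), while in Gja5+ and Car4+ cells it was -0.21 (-0.42 to -0.01) and -0.20 (-0.34 to -0.06). Peg3 had its largest ratios in Car4+ cells, from 270 to 24.9 CPM (3.42, 3.00 to 3.91), and in Gja5+ cells, from 301 to 27.4 CPM (3.44, 2.84 to 4.12). Grb10 ranged from 98.2 to 193 CPM at P1 over the 5 subsets.

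Pdgfra cells were divided by Col26a1, Pi16 and Gdf10. Dlk1 differed most in Pi16+ cells, at 1282 CPM at P1 and 31.4 CPM at P7 (log2 ratio 5.35, 5.19 to 5.52). In Col26a1+ cells it was at 1366 and 129 CPM (3.41, 3.31 to 3.51). In Gdf10+ cells it remained abundant, at 1867 CPM in 39 cells at P1 and 1033 CPM in 23 cells at P7 (0.85, 0.69 to 1.03). At P7 Gdf10+ cells thus stood far above both other subsets. Pi16+ cells were 5.27% of the gate at P1 and 36.3% at P7, and Col26a1+ cells were 49.4% and 20.6%. Reweighting to the P1 shares took the Dlk1 ratio from 3.86 to 3.12, H19 from 1.705 to 1.46 and Peg3 from 1.90 to 1.63. Plagl1 went from 1.02 to 0.88, under 2-fold, while Cdkn1c rose from 0.70 to 0.98. Meg3 and Ndn were alike in the 3 subsets, with ratios from 0.27 to 0.54 and from -0.07 to 0.27.

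Cells in division were compared with the rest because Cdkn1c arrests the cycle. Cells with a UMI of Mki67 or Top2a were 17.8% of Cdh5 cells at P1 and 18.2% at P7, and 19.3% and 14.05% of Pdgfra cells. Within Cdh5 cells Cdkn1c was at 223 CPM in such cells and 662 CPM in the others at P1 (log2 ratio -1.57, -1.66 to -1.48), and at 133 and 342 CPM at P7 (-1.36, -1.46 to -1.26). H19 was also lower in cycling Cdh5 cells, by -0.83 at P1 and -0.57 at P7, and Plagl1 by -0.75 and -0.79. Mest was higher in them, by 0.47 and 0.28. In Pdgfra cells the largest difference was in Meg3, at -0.76 and -0.57, and Cdkn1c was at -0.23 and -0.39. Cycling cells were deeper, with a median of 14654 against 10168 UMIs in Cdh5 cells at P1. The endothelial subsets above, between which Cdkn1c, H19, Plagl1 and Mest differed, were pooled here. The part of the subset mix in the differences between cycling and other cells was not tested.

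For H19, Peg3 and Dlk1 the ratio of P1 over P7 was past 2-fold in both kinds of cell. The part of cell division in the difference between the libraries was not tested. In cycling Cdh5 cells H19 had a ratio of 1.76 (1.70 to 1.82) and in the others 2.02 (1.99 to 2.05), and Peg3 had 2.43 and 2.49. In cycling Pdgfra cells Dlk1 had 3.69 (3.55 to 3.84) and in the others 3.93 (3.87 to 3.99). Plagl1 in Pdgfra cells was at 0.42 in cycling cells and 1.18 in the others, and Dlk1 in Cdh5 cells, with few UMIs, at 2.48 and 4.35.

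**Figure D4:**
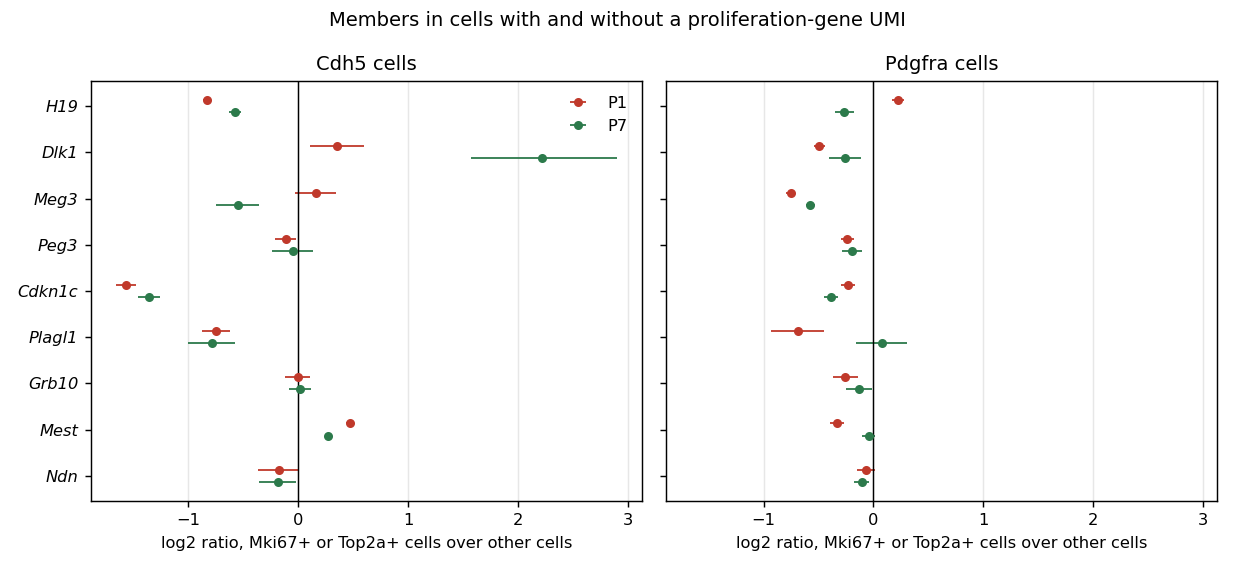
Log2 ratio of CPM in cells with a Mki67 or Top2a UMI over the other cells of the gate (horizontal axis) for each gene (vertical axis), in Cdh5 cells (left) and Pdgfra cells (right), with P1 in red, P7 in green and exact binomial 95% intervals. Cdkn1c in Cdh5 cells lies at -1.57 and -1.36, and Dlk1 at P7 in Cdh5 cells, at 2.22, rests on 86 UMIs.

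Single cells carried several of the genes at once. No share expected from the genes taken singly was computed, so the values below do not show linked expression. With cells thinned to 2000 UMIs (574 shallower P1 cells and 727 P7 cells dropped), at least 4 of the 9 genes were found in 79.5% of Pdgfra cells at P1 and 41.7% at P7. In Kcnj8 cells the shares were 65.3% and 13.4%, and in Cdh5 cells 29.6% and 8.63%. Upk3b cells had 70% and 50%, on 40 and 18 cells, with exact binomial intervals of 53.5 to 83.4% and 26.019 to 73.981% that overlapped.

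The neighbours of the 9 genes within 1000000 bases gave each locus a wider view. Igf2, the fetal growth factor 72623 bases from H19 and expressed from the other parental copy, was at 37.2 CPM at P1 and 11.2 CPM at P7 (log2 ratio 1.74, 1.63 to 1.84), beside 1.90 for H19. Other neighbours of H19 were mixed. Cd81 had a ratio of -0.12, Tssc4 -0.14, Nap1l4 -0.07 and Tspan32 -0.58. Ascl2 had 1.74 (0.87 to 2.73) on 33 and 16 UMIs. Usp29 and Zim1, next to Peg3, had ratios of 2.71 (2.46 to 2.99) and 2.23 (2.06 to 2.41), at 10.2 and 17.5 CPM at P1. Both were also past 2-fold in Cdh5 and Pdgfra cells, at 3.31 and 3.58 in the former and 2.95 and 2.83 in the latter, where Peg3 was at 2.48 and 1.90. Zim1 in Cdh5 cells rested on 36 and 4 UMIs.

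At other loci some neighbours lay near their member and others apart from it. Mirg, a microRNA host in the same cluster as Meg3, had a ratio of 0.33 (0.12 to 0.54) beside 0.26 for Meg3. Klf14, near Mest, had 0.30 (-0.17 to 0.76) beside 0.36. Kcnq1ot1, the non-coding RNA that silences Cdkn1c and others on the paternal copy, was at 169 CPM at P1 and 184 CPM at P7 (-0.12, -0.16 to -0.09), against 0.60 for Cdkn1c. Ddc, 32364 bases from Grb10, had a ratio of 1.51 (1.22 to 1.81) against 0.53, on 266 and 154 UMIs. Near Ndn, Magel2 had 0.99 (0.45 to 1.55) on 64 and 53 UMIs and Mkrn3 -0.32 (-0.64 to -0.02). Rtl1 and Dio3, of the Dlk1 and Meg3 cluster, had 17 and 4 UMIs at P1 and 15 at P7 each, too few to compare.

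**Figure D5:**
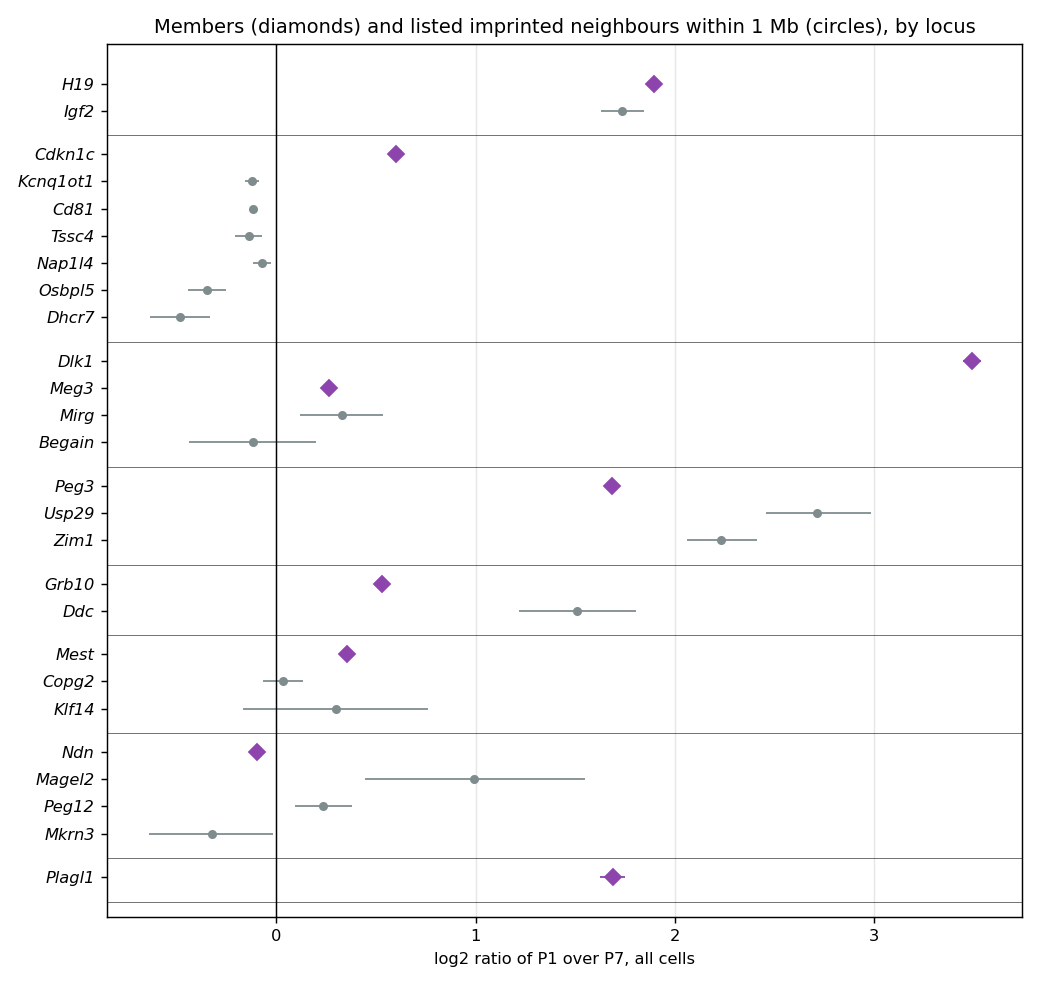
Log2 ratio of P1 over P7 in all cells (horizontal axis) for the 9 genes (purple diamonds) and some of their listed imprinted neighbours (grey circles), grouped by locus (vertical axis), with exact binomial 95% intervals. Neighbours not drawn include Ascl2, at 1.74 on 33 and 16 UMIs, and Tspan32, at -0.58. Peg3, Usp29 and Zim1 lie at 1.68, 2.71 and 2.23, whereas Dlk1 at 3.49 and Meg3 at 0.26 lie far apart.

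A list of 59 other imprinted genes, of which 52 had 20 or more summed UMIs, did not move as a whole. Of these, 7 were at least 2-fold higher at P1 and 3 at P7, beside the 8.88% and 4.07% of all genes tested, and their median log2 ratio was 0.10. Among those with 50 or more UMIs in the higher library, the largest ratios besides those of Igf2, Usp29, Zim1 and Ddc were those of Zdbf2, at 1.56, and Gpr1, which shares the Zdbf2 locus and was higher at P7, at -2.90 on 8 and 104 UMIs. By parental copy, 1 of the 4 maternally expressed members and 3 of the 5 paternally expressed ones were at least 2-fold higher at P1 over all cells, and the counts cannot say which copy was read.

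Genes of a fetal growth programme were listed too, with earlier results of these data known, so their count is a description. Of its 11 genes tested, 5 were at least 2-fold higher at P1 and 0 at P7, beside 8.88% and 4.07% of all genes tested. Their median log2 ratio was 0.70. Hmga2, a chromatin protein of embryonic growth, was at 17.4 and 3.82 CPM (2.19, 2.02 to 2.36). Igf2bp1, Igf2bp2 and Igf2bp3, of a family known to bind the Igf2 mRNA, had ratios of 2.01, 1.23 and 1.18, whereas Mycn had -0.71. Among 10 relatives of the members, Plag1, a relative of Plagl1 known to act on Igf2, had 2.18 (1.95 to 2.42) and Dlk2 had -1.84 (-2.85 to -1.02). Of 9 genes that set or keep imprints, 0 were past 2-fold in either direction over all cells. At the shares of all genes just given, a count of 0 among so few genes says little. Dnmt3a, which lays down methylation, was at -0.17, and Dnmt1, which copies it, at 0.12.

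Across the 14 sums of 7 gates and 2 ages, some pairs of members had like patterns. Pearson's r of log2(CPM + 1) was 0.92 for Meg3 and Ndn, 0.90 for Grb10 and Ndn, 0.87 for Dlk1 and Peg3, 0.87 for Cdkn1c and Plagl1 and 0.84 for H19 and Mest, and it was 0.28 for H19 and Meg3. The 14 points share 2 libraries and the low level of the Csf1r gate, so these values are a description. Among 6053 genes with at least 50 CPM somewhere, the pattern most like that of Grb10 was that of Ghr, the growth hormone receptor (r 0.98), and the one most like Plagl1 was that of Phactr2 (0.93), which lies 76023 bases from it on chromosome 10. The nearest to H19 was Rpl15 (0.95), to Dlk1 Uri1 (0.92), to Meg3 Clip3 (0.98), to Peg3 Pigp (0.94), to Cdkn1c Megf6 (0.93), to Mest Fscn1 (0.95) and to Ndn Rbms3 (0.98).

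Other signals that moved between the libraries were set beside these results. Over all cells the summed level of 8 cardiomyocyte genes was 817 CPM in the P1 library and 264 CPM in the P7 library, and that of 8 lung genes was 258 and 4.03 CPM, with 3 of the latter at 0 at P7. In Cdh5 cells, where H19 was highest, the lung genes summed to 69.1 and 6.24 CPM, and without cells with a lung gene UMI the H19 ratio was 2.04. In Fmod and Scx cells the 7 red cell genes summed to 1622 and 39.3 CPM, and their part in the ratios of that gate was not tested. A list of 10 genes that respond to digestion summed to 4839 and 4507 CPM over all cells, with 0 genes past 2-fold in either direction. Cdh5 and Pdgfra cells also had 0 past it. In Kcnj8 cells the list summed to 5023 and 3440 CPM, with 1 gene past 2-fold towards P1 and 2 towards P7. Myh11 cells, at 10040 and 8130 CPM, had 1 in each direction. Fmod and Scx cells, at 7908 and 6630 CPM, had 1 of 9 genes tested in each direction. Upk3b cells had 2 of 8 genes tested towards P1 and 0 towards P7, and Csf1r cells 1 of 9 and 0. The shares of all genes in these gates are given above. The part of digestion in the ratios was not tested.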

How the data were processed

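Live cells from P1 and P7 mouse hearts were profiled with 10x Genomics 3′ single cell RNA-seq, 1 library per age. The authors aligned reads to mm10 (GRCm38) with Cell Ranger 3.1.0 and deposited raw UMI counts per gene for the barcodes called as cells, without the study's own cell filters. From these deposited counts, barcodes with 200 to 8000 genes and at most 20% mitochondrial UMIs were kept. No doublet caller was run. Cells were assigned by marker gates. A cell passing several gates was left out, except that the Fmod and Scx gate and the Upk3b gate took precedence over Pdgfra. UMIs were summed per gate and library and scaled to CPM. Log2 ratios had 0.5 counts added to each sum and were given for genes with at least 20 summed UMIs, or for all 9 members. Intervals were exact (Poisson for levels, conditional binomial for ratios, Clopper-Pearson for shares, 95%). The 2-fold threshold is a size, not a test. The paper's MAST test and Harmony integration were not run.

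The members, gene lists and gates were chosen with earlier results of these data known, and the subset markers and promoter motifs were picked in this re-analysis. Beside the members, the text names up to 6 genes per list with the largest ratios among those with 50 or more UMIs in the higher library, Igf2, genes within 1000000 bases, and the genes with the likest patterns, of which 3 per member were computed and the first is named. Mirg, Klf14, Magel2, Mkrn3, Rtl1, Dio3, Kcnq1ot1, Copg2, Cd81, Tssc4, Nap1l4, Tspan32 and Ascl2 were named as neighbours after their values were seen. The intervals were tested on simulated Poisson counts with 200 changed genes. They held the true value for 94.5% of these in all cells (16552 genes), 96.0% in Pdgfra cells (13710) and 95.5% in Upk3b cells (5842). Poisson counts are what the intervals assume, so this checked the calculation only, and not genes whose UMIs cluster in few cells. Alternatives varied the mitochondrial limit, gates, scaling, depth, added count, minimum of UMIs and cells included. Whether counting used strand is not given in the sources used here, and annotated genes on the other strand overlap Mest, Meg3, Cdkn1c and Ndn. Gene positions are from GENCODE M21 and sequences from RefSeq. Python 3.11.15, numpy 2.4.6, scipy 1.17.1, pandas 2.3.3 and matplotlib 3.10.9 were used.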

Additional observations from a re-analysis of the deposited data

Results flagged for a closer look

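For 3 of the genes the ratio was past 2-fold towards P1 in at least 1 gate and towards P7 in another, and these differences between gates were not tested. The Csf1r values among them changed sign under alternatives, so for Meg3 and Mest no opposite direction is read, and Cdkn1c in Upk3b cells is the one value of the kind outside that gate. Meg3 had a log2 ratio of P1 over P7 of 1.22 in Myh11 cells and -2.36 in Csf1r cells, where 1 cell held 58.8% of its P7 UMIs. Cdkn1c had 1.67 in Kcnj8 cells and 1.14 in Myh11 cells, but -1.82 in Upk3b cells and -1.70 in Csf1r cells. Mest had 1.00 in Kcnj8 cells and 1.17 in Upk3b cells, but -1.33 in Csf1r cells.

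The barcodes removed by the filters also held UMIs of the 9 genes, 6534 in 2845 barcodes at P1 and 2423 in 566 barcodes at P7. In CPM of those barcodes this was 1433 and 2650, beside the 5215 and 2814 of the cells kept. The removed barcodes were 73.9% mitochondrial at P1 and 32.9% at P7. Mitochondrial UMIs count in the CPM, so these levels do not show that the removed barcodes were poorer in the 9 genes.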

How the results depend on the processing

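No paired analysis was possible because each age had 1 library, and for the same reason no library could be left out. The counts of members and of other imprinted genes at least 2-fold higher at P1 stayed within 1.5 times of their value in 120 of 127 alternatives. The other 7 were all counts in Csf1r cells, 1 as reported, which became 5 with a gate of 1 UMI, 4 with marker panels, 3 without cells with a Cdh5 or Pdgfra UMI, and 2 with a gate of 3 UMIs, with the mean of single-cell CPM, after thinning and without Mki67 or Top2a cells. Of 38 member ratios past 2-fold, 25 stayed past it in every alternative of gates, depth, scaling and cells. In the separate reweighting to P1 subset shares, H19 and Plagl1 in Cdh5 cells, both among the 25, went to 0.97 and 0.88. Of 1044 alternative values of single ratios 231 moved beyond the counting interval, and 13 of ratios past 2-fold turned in sign, of which 12 were in Csf1r cells: with a gate of 1 UMI, Meg3 1.56, Cdkn1c 0.079, Grb10 0.54, Mest 0.92 and Ndn 1.64; with marker panels, Meg3 2.73 and Grb10 0.11; with the mean of single-cell CPM, Grb10 0.37 and Ndn 0.44; after thinning, Grb10 2.84; and without Cdh5 or Pdgfra UMIs, Meg3 1.17 and Grb10 0.076. The thirteenth was Cdkn1c in Myh11 cells, -0.15 with marker panels. The cause was not tested. Marker panels gave no value for Fmod and Scx cells and left 1 and 2 Upk3b cells. Leaving out the highest cell of each gene, and Csf1r cells with a Cdh5 or Pdgfra UMI, were chosen after seeing the data.

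Depth limits the Upk3b gate most, with 600453 UMIs at P1 and 238764 at P7, and in Csf1r cells the few UMIs of the members limit the ratios.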
